A study of Homo sapiens with 2 samples.

Results

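The cell death and p53 pathway genes are 65 genes that the authors called changed in SNU-449, a cell line from a human hepatocellular carcinoma, after a 24 h ezetimibe treatment. Ezetimibe lowers cholesterol by inhibiting NPC1L1, a transporter of sterols. The ezetimibe culture and the control culture gave 1 RNA library each, both of total RNA. The sources used here do not give the dose or what the control culture received. No difference therefore has a replicate check, and no p-value or error across cultures can be given for any gene. The authors' deposited table lists each changed gene under its KEGG pathways with a direction, and it holds no level or fold change. The comparison is named with ezetimibe ahead of control, so up is read as higher in the ezetimibe library, a reading that the table's values cannot test.

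The members were taken from 4 KEGG pathways in that table, Apoptosis, p53 signaling, Ferroptosis and Necroptosis. These hold 144 distinct changed genes. Genes also listed under 12 other pathways (cell cycle, cytokine and NF-kB signalling, autophagy, protein processing in the endoplasmic reticulum, lysosome and focal adhesion among them) were left out, as were 10 widely annotated kinase and AP-1 genes, all of which the 12 pathways already removed. This took away 79 genes and left 65 of the 2238 changed genes of the table. The members were thus chosen by the authors' calls of change in this same comparison, so that being called is no finding about them. Of the 8877 background genes of the table, 25.2% were called changed, 8.20% as up and 17.0% as down. The direction of a gene was not used in choosing it.

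Apoptosis is the ordered dismantling of a cell by caspases, proteases switched on either at death receptors or by cytochrome c released from mitochondria, a release controlled by the BCL2 family. The transcription factor p53 feeds into it by inducing BH3-only genes such as BBC3 and PMAIP1, along with genes of arrest and DNA repair. Ferroptosis is death by iron-driven oxidation of membrane lipids, held off by glutathione and by the reductase AIFM2 (FSP1), and necroptosis is membrane rupture by MLKL downstream of the RIP kinases.

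After ezetimibe 30 of the 65 members were listed as up and 35 as down. The share up was 46.2%, with an exact 95% interval (Clopper-Pearson) of 33.7 to 59.0, which covers counting among genes only. Among the 2173 other listed genes 698 were up and 1475 down, a share up of 32.1% (30.2 to 34.1). The 79 genes that the rule left out had 28 up and 51 down (35.4%, 25.0 to 47.0). No test was made of these differences, since the members were chosen with results of these libraries known.

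By pathway, Ferroptosis had 8 members up and 6 down, and Necroptosis 14 up and 10 down. Apoptosis had 6 members up and 11 down, and p53 signaling 5 up and 11 down. The intervals of the share up were wide, from 28.9 to 82.3% for Ferroptosis, 36.6 to 77.9% for Necroptosis, 14.2 to 61.7% for Apoptosis and 11.0 to 58.7% for p53 signaling, and each overlapped the others. With the genes left out by the rule counted as well, the share up was 52.9% for Ferroptosis, 41.2% for Necroptosis, 42.2% for Apoptosis and 24.4% for p53 signaling. Of the members, 59 were under 1 of the 4 pathways and 6 under 2 of them. APAF1, BBC3 and PMAIP1 joined Apoptosis to p53 signaling, FTH1 and FTL joined Ferroptosis to Necroptosis, and PARP4 joined Apoptosis to Necroptosis. In the authors' deposited table p53 signaling had a rich factor of 2.20 (the share of changed genes in the pathway over the share of background genes in it; p = 5.29e-06, q = 0.000288). Apoptosis had 1.66 (p = 0.000153, q = 0.00356), Ferroptosis 1.69 (p = 0.0313, q = 0.133) and Necroptosis 1.15 (p = 0.292, q = 0.607) in the authors' deposited table. These values count all listed genes of a pathway, including those left out here, and take genes as independent units.

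**Figure D1:**
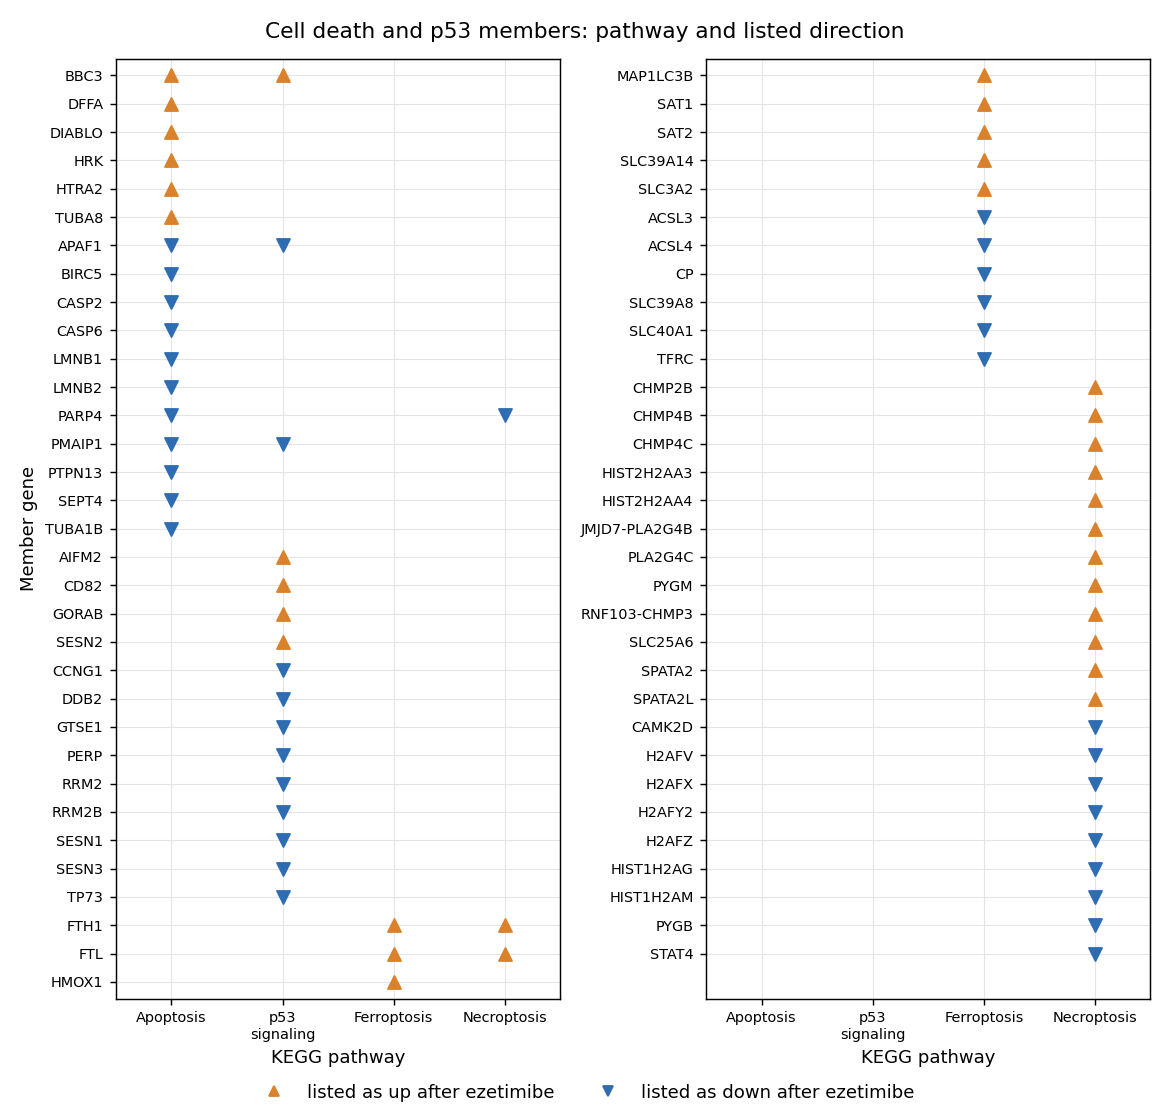
The 65 member genes (rows, in 2 columns) against the 4 KEGG pathways that list them (x axis), with upward orange triangles for genes listed as up after ezetimibe and downward blue triangles for genes listed as down. The p53 signaling column holds 11 downward and 5 upward triangles, and the Necroptosis column 10 downward and 14 upward.

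**Figure D2:**
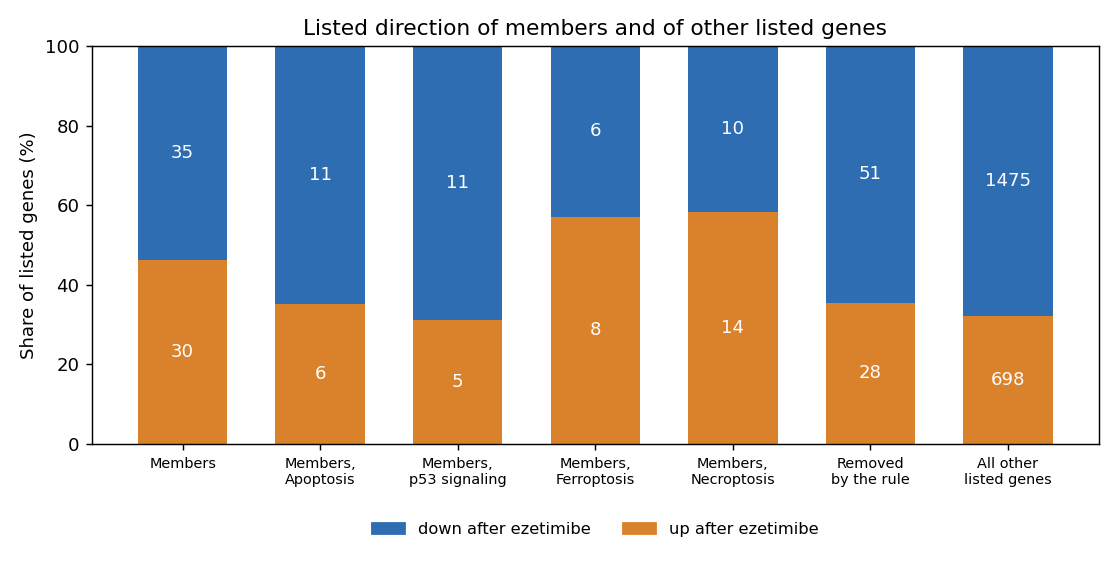
Share of genes (y axis, %) listed as up (orange) and down (blue) after ezetimibe, for the members, the members of each pathway, the 79 genes left out by the rule and all 2173 other listed genes; numbers in the bars are genes. The members were 46.2% up and the other listed genes 32.1%.

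The members that start apoptosis at the mitochondrion were divided. The BH3-only genes BBC3 (PUMA) and HRK, whose products bind and block the survival proteins of the BCL2 family, were listed as up. PMAIP1 (NOXA), another BH3-only gene, was listed as down. BBC3 (ENSG00000105327) lies on chromosome 19 from 47220822 to 47232766 on the minus strand, and PMAIP1 (ENSG00000141682) on chromosome 18 from 59899948 to 59904306 on the plus strand, in GENCODE release 29 on GRCh38. Of the 8 BH3-only genes searched for, BMF was also listed, as down, outside the members. The rule removed all listed BCL2-like survival and pore-forming genes of these pathways: the pore former BAK1 was up and BCL2 down.

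Among the proteins that leave the mitochondrion, DIABLO (SMAC) and the protease HTRA2, which bind and disable inhibitors of apoptosis, were listed as up. APAF1, the scaffold on which cytochrome c activates caspase-9, was listed as down. The septin SEPT4, of which one isoform (ARTS) binds the inhibitor XIAP, was also down. BIRC5 (survivin), an inhibitor-of-apoptosis protein that also serves chromosome segregation in mitosis, was down as well.

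The caspase members were down. They were CASP2, an initiator caspase, and CASP6, an executioner that cleaves lamins. CASP1 and CASP8, which the rule left out, were also down. Over all listed genes 1510 of 2238 were down.

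Of the 6 caspase substrate members, 4 were down, near the share over all listed genes (1510 of 2238 down). The B-type lamins LMNB1 and LMNB2 of the nuclear lamina, the ADP-ribosyltransferase PARP4 and the tubulin TUBA1B were listed as down. DFFA, the inhibitor that holds the apoptotic nuclease DFFB in check until caspases cut it, and the tubulin TUBA8 were listed as up. PTPN13, a phosphatase that binds the tail of the death receptor FAS, was down. FAS itself, left out by the rule, was down, and the death receptor TNFRSF10A was up.

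The p53 signaling members had a share up of 31.3%, near the 32.1% of the other listed genes. The p53 relative TP73, the cyclin CCNG1, a p53 target that regulates MDM2, and GTSE1, which restrains p53 in the G2 phase, were listed as down. PERP, a membrane protein induced by p53 in apoptosis, was also down. AIFM2, named both as a p53 target and as a ferroptosis suppressor, the metastasis suppressor CD82 and the golgin GORAB were listed as up. Of the 6 members in the list of p53 targets of DNA repair, 5 were down and 1, SESN2, was up. GADD45A and GADD45G, left out by the rule, were up. With these 2 genes, 3 of the 8 listed genes of that list were up, against 32.5% of all listed genes. DDB2, the damage sensor of nucleotide excision repair, and the ribonucleotide reductase subunits RRM2 and RRM2B, the second of them a p53 target, were all down.

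The sestrins did not share a direction. SESN2 was listed as up, and SESN1 and SESN3 were listed as down. Sestrins restrain the growth kinase mTORC1; SESN1 is known as a p53 target and SESN2 as a target of p53 and of the stress factor ATF4. ATF4, left out by the rule, was listed as up. So were the arrest genes CDKN1A and GADD45A and the stress factor DDIT3. The damage kinases ATM, ATR, CHEK1 and CHEK2 and the matrix protein THBS1 were down. Of the other core genes left out by the rule, SQSTM1 was up, and BIRC2, CCND1 and CDK1 were down.

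The iron genes among the Ferroptosis members were 4 up and 4 down, where 32.5% of all listed genes were up. The ferritin subunits FTH1 and FTL, which store iron, the haem oxygenase HMOX1, which frees iron from haem, and the metal importer SLC39A14 (ZIP14) were listed as up. The transferrin receptor TFRC, the main route of iron uptake, the related importer SLC39A8 (ZIP8), the iron exporter SLC40A1 (ferroportin) and the ferroxidase CP (ceruloplasmin) were listed as down. Of the 18 iron genes searched for, 9 were listed, these 8 and the oxidase subunit CYBB, which was down. Over all background genes 25.2% were called changed. FTH1 (ENSG00000167996) lies on chromosome 11 from 61959718 to 61967660, FTL (ENSG00000087086) on chromosome 19 from 48965301 to 48966878, TFRC (ENSG00000072274) on chromosome 3 from 196027183 to 196082189 and SLC40A1 (ENSG00000138449) on chromosome 2 from 189560579 to 189583758.

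Several of these messages carry iron-responsive elements, hairpins bound by the iron regulatory proteins IRP1 and IRP2 when iron is short. In the 5′ untranslated region of ferritin and ferroportin messages the element lets these proteins block translation, and in the 3′ untranslated region of the TFRC message it protects the RNA from decay. The transcripts were searched for a C, a stem of 5 paired bases (G-T pairs allowed) and the loop CAGTGN with a last base other than G, on the sense strand. The matches are shown because they link the storage, export and uptake genes, and capitals mark the loop; the sequences are those of GENCODE release 29 on GRCh38.
FTH1, 5′ untranslated region, chr11:61967580-61967596, minus strand: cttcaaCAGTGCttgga
FTL, 5′ untranslated region, chr19:48965341-48965357, plus strand: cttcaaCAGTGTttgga
SLC40A1, 5′ untranslated region, chr2:189580667-189580683, minus strand: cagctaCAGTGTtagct
TFRC, 3′ untranslated region, chr3:196050985-196051001, minus strand: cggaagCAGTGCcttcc
TFRC, 3′ untranslated region, chr3:196050581-196050597, minus strand: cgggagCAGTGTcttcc
TFRC, 3′ untranslated region, chr3:196050516-196050532, minus strand: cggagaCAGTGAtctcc
TFRC, 3′ untranslated region, chr3:196050469-196050485, minus strand: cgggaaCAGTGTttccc

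The element was found in 4 of the 65 members, and these were the ferritins (up) and SLC40A1 and TFRC (down). Of the 2235 listed genes with a coding transcript, 26 held a match anywhere (1.16%), 4 of them in the 5′ untranslated region and 7 in the 3′ untranslated region. FTH1, FTL and SLC40A1 were thus 3 of the 4 listed genes with a match in the 5′ untranslated region. This search was chosen after the directions were seen, and the pathway collects iron genes by annotation, so the count is a description.

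The other Ferroptosis members were lipid, amino acid and polyamine genes. ACSL4, which loads polyunsaturated fatty acids for phospholipids and so sensitises cells to ferroptosis, and its relative ACSL3 were listed as down. SLC3A2, the heavy chain of the cystine importer, was up. The acetyltransferases SAT1, which starts polyamine breakdown, and SAT2 were up, as was MAP1LC3B, a marker of autophagosomes that the table lists under Ferroptosis alone. GPX4, the light chain SLC7A11 and the glutathione synthesis genes GCLC, GCLM and GSS were not listed. Of the 13 genes of cystine, glutathione and antioxidant defence searched for, 4 were listed, where 25.2% of all background genes were called changed. These were SLC3A2 and AIFM2, both up, and, outside the members, KEAP1 as up and COQ2 as down.

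The Necroptosis members that repair the plasma membrane were all listed as up, where 32.5% of all listed genes were up. CHMP2B, CHMP4B, CHMP4C and the read-through locus RNF103-CHMP3 encode subunits of ESCRT-III, which pinches off damaged membrane. They are 4 of the 14 ESCRT-III and VPS4 genes searched for, where 25.2% of all background genes were called changed. SPATA2, which brings the deubiquitinase CYLD to the TNF receptor complex, and its relative SPATA2L were up. Of the other listed genes of the RIP kinase core, all left out by the rule, RBCK1, SHARPIN and TICAM1 were up and CASP8, DNM1L, TICAM2 and the pore former MLKL were down, so that this list held 5 genes up and 4 down. The phospholipases PLA2G4C and JMJD7-PLA2G4B, the muscle glycogen phosphorylase PYGM and the mitochondrial ADP/ATP carrier SLC25A6 were up. The brain glycogen phosphorylase PYGB, the calmodulin-dependent kinase CAMK2D and the transcription factor STAT4 were down.

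Histone H2A genes made up 8 of the 24 Necroptosis members. The variants H2AFX, whose phosphorylation marks DNA breaks, H2AFZ, H2AFV and the macroH2A gene H2AFY2 were listed as down. The replication-dependent genes HIST1H2AG and HIST1H2AM of the chromosome 6 cluster were down as well, and HIST2H2AA3 and HIST2H2AA4 of chromosome 1 were up. The last 2 share nearly all of their sequence, with 100% of the 31-base words of HIST2H2AA3 found in HIST2H2AA4, so reads cannot be told apart and they may be 1 signal counted 2 times. The same 8 histone genes are the members under the Alcoholism and Systemic lupus erythematosus pathways.

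Promoter sequence was available in RefSeq (GRCh38.p14) for 55 of the 65 members. The 250 bases before 1 transcription start per gene were searched on both strands, and other starts were not searched. For some members, TP73, SESN1, SLC39A8, SEPT4 and MAP1LC3B among them, the start used lies inside the gene span of GENCODE. A match or its absence therefore holds for that start only. The entries not matched are BIRC5, CHMP4C, CP, FTH1, HMOX1, PARP4, PLA2G4C, PYGM, RRM2B and SLC39A14. The antioxidant response element TGACNNNGC, bound by NRF2, was found in 7 of 24 members listed as up (29.2%) and 1 of 31 listed as down (3.23%). Over all listed genes with a promoter the shares were 15.4% of 584 up and 11.9% of 1243 down, and 11.0% of all 27305 promoters held it. The 7 genes were AIFM2, CD82, HIST2H2AA3, HIST2H2AA4, HRK, MAP1LC3B and SAT2, of which the 2 histone genes have the same sequence around the match; the gene listed as down was HIST1H2AG. The C/EBP-ATF element TGATGNAA was found in HRK and SPATA2, both up, in 2.08% of all listed genes and in 3.34% of all promoters. The E-box CACGTG was found in 4 members up (BBC3, DFFA, RNF103-CHMP3 and TUBA8) and 4 down (LMNB1, SEPT4, SLC39A8 and TP73), which is 16.7% of 24 and 12.9% of 31. It was in 70 of 584 listed genes up, 102 of 1243 listed genes down (9.41% of all listed genes) and 6.28% of all promoters. The consensus p53 half-site was found in SESN1 and PYGB, both down, in 4.82% of all listed genes and in 5.59% of all promoters. None of these matches overlapped another. The differences between these shares were not tested, nor was any action of NRF2 or another factor at these sites.

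The sites are shown for the single-copy members listed as up with an antioxidant element and for the p53 target SESN1. Capitals mark the match, and each sequence is written along the strand of its gene.
AIFM2, antioxidant element on the opposite strand, chr10:70132829-70132857, minus strand: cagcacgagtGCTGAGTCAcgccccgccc
CD82, antioxidant element, chr11:44565634-44565662, plus strand: ggccgaggagTGACTGAGCcccgggctgt
MAP1LC3B, antioxidant element, chr16:87392280-87392308, plus strand: gcgagtcaccTGACCAGGCtgcgggctga
SAT2, antioxidant element on the opposite strand, chr17:7627960-7627988, minus strand: ctacccaggaGCCCAGTCAcaagatccag
SESN1, p53 half-site, chr6:109009018-109009047, minus strand: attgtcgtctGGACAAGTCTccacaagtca

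The promoter of HRK held the C/EBP-ATF element, 75 to 68 bases before the start, and the antioxidant element on the opposite strand, 20 to 12 bases before it. It is shown whole because it is the only member promoter with more than 1 kind of match.
HRK, chr12:116881442-116881691, minus strand: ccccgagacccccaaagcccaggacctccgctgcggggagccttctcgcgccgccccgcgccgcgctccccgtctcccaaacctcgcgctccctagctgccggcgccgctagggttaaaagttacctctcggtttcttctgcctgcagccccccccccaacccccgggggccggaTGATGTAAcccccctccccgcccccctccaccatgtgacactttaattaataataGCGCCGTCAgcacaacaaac

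Direction went with base composition among the members. The median GC content of the longest transcript was 56.2% for members listed as up (35.4 to 69.7%) and 44.7% for members listed as down (36.4 to 66.4%). The medians of the other listed genes were 55.2% for 698 up and 43.6% for 1474 down. Above or at the median of all listed genes (47.0% GC), 25 of 38 members were up (65.8%, interval 48.6 to 80.4), against 52.3% of 1081 other listed genes. Below it, 5 of 27 members were up (18.5%, 6.30 to 38.1), against 12.2% of 1091 other listed genes. BBC3 had the highest GC content of the members at 69.7% and PMAIP1 one of the lowest at 37.2%. SESN2 had 59.5%, against 43.4% for SESN1 and 37.1% for SESN3. FTH1 and FTL had 50.1 and 56.3%, and TFRC and SLC40A1 had 41.5 and 42.4%.

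The members that went against this trend were CHMP2B, CHMP4C, DIABLO, GORAB and SAT1, up with a GC content below the median, and 13 genes listed as down above it. Those 13 were BIRC5, DDB2, GTSE1, H2AFX, H2AFY2, H2AFZ, HIST1H2AM, LMNB1, LMNB2, PYGB, SEPT4, TP73 and TUBA1B. Median transcript length was 2312 bases for members up and 3673 bases for members down. The part of base composition and length in the directions was not tested.

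**Figure D3:**
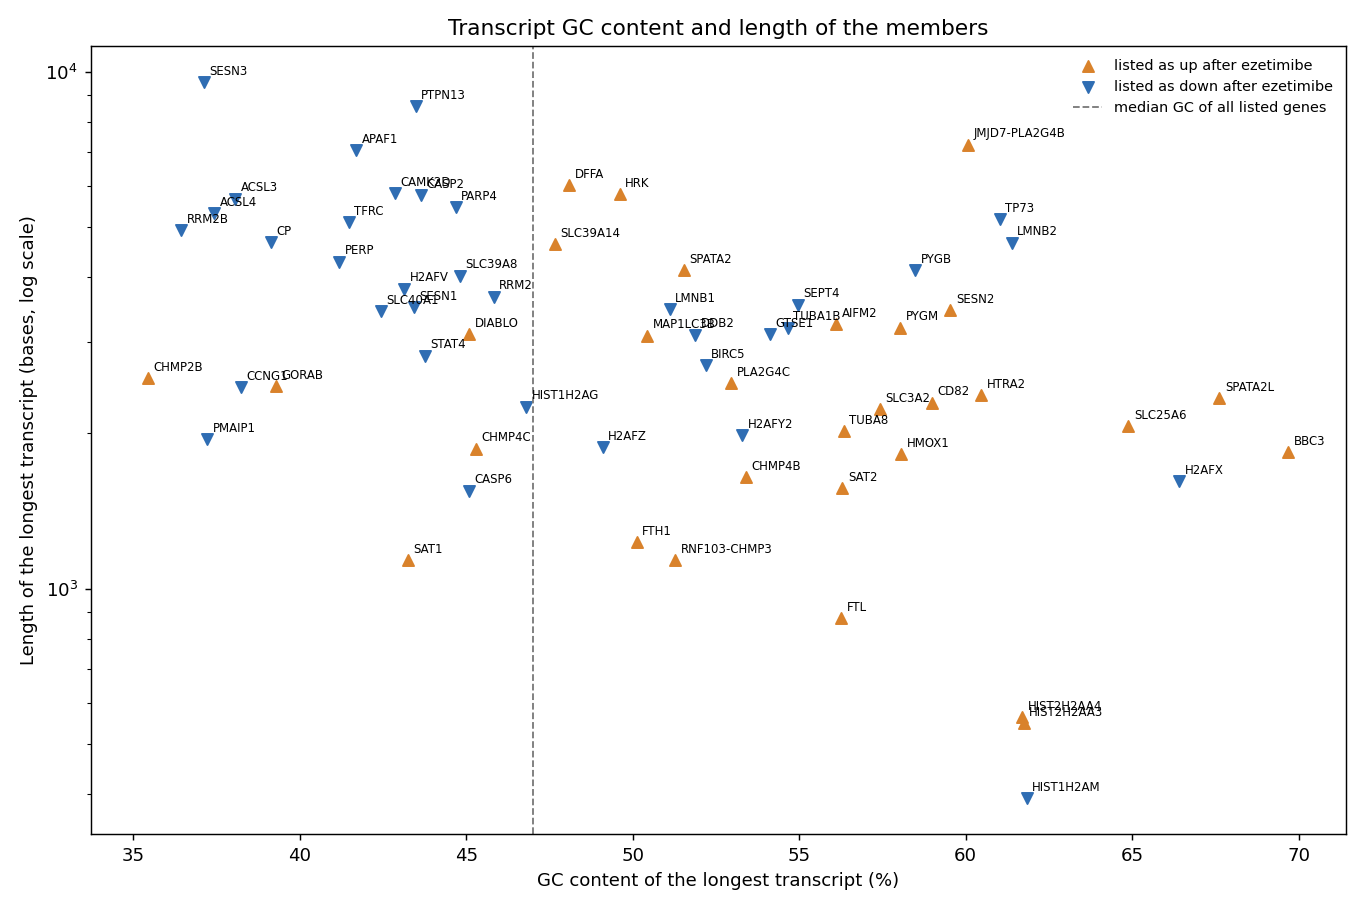
GC content (x axis, %) and length (y axis, bases, log scale) of the longest transcript of each of the 65 members, with orange upward triangles for genes listed as up after ezetimibe and blue downward triangles for genes listed as down; the dashed line is the median GC content of all listed genes (47.0%). Right of the line 25 of 38 members are up, and left of it 5 of 27.

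Some members share sequence with other genes, so the read counts behind their calls may be divided between copies. In 9 members (7 up, 2 down) at least 50% of the 31-base words of the longest coding transcript also occurred in transcripts of other genes. These were HIST2H2AA3, HIST2H2AA4, HIST1H2AM, TUBA1B, TUBA8, FTH1, DIABLO, JMJD7-PLA2G4B and RNF103-CHMP3. For JMJD7-PLA2G4B the share was 99.2%, since the read-through locus contains JMJD7 and PLA2G4B, and for RNF103-CHMP3 it was 76.7%; PLA2G4B and CHMP3 were not listed. DIABLO (98.5%) overlaps a second gene entry of the same name in GENCODE. FTH1 (50.8%) shared words with 16 genes, led by its processed copy FTH1P10, and FTL 33.3% with 6 genes. TUBA8 shared 66.4%, with PEX26. No word was shared by 26 members, 10 up and 16 down, among them BBC3, PMAIP1, TFRC, SLC40A1, SAT1 and the 3 sestrins. Exons of H2AFY2 (down) and AIFM2 (up) overlap on opposite strands over 0.556% of the exonic bases of H2AFY2. Exons of BEST1, which was not listed, lie opposite 62.4% of the exonic bases of FTH1. The sources used here do not say whether reads were counted by strand.

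**Figure D4:**
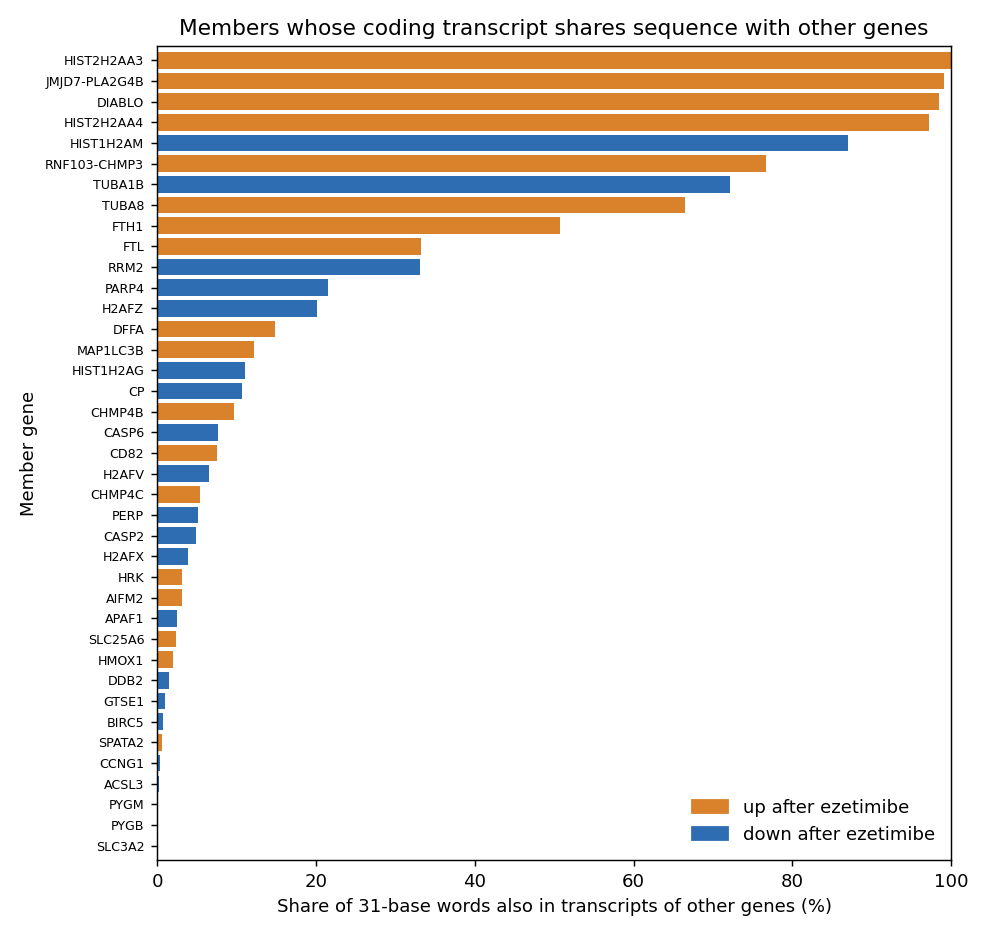
Share of the 31-base words of each member's longest coding transcript that also occur in transcripts of other genes (x axis, %), for the 39 members with any shared word, in orange for genes listed as up after ezetimibe and blue for genes listed as down. Only 9 members exceed 50%, and HIST2H2AA3 reaches 100%.

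The table has no levels, so the cell type could not be checked against its markers, and sequencing depth is unknown. Of the 8877 background genes 25.2% were called changed, 17.0% as down. Among 12 hepatocyte markers, 5 were listed, all as down (AFP, CPS1, FGA, FGB and FGG). Of markers of other cell types, 2 of 5 cholangiocyte and 3 of 5 fibroblast markers were listed as down and no endothelial marker was listed. Of the immune markers CD68 was up and CD14 down. Their part in the results was not tested.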

How the data were processed

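Total RNA of 1 ezetimibe and 1 control culture was sequenced. The submitters' processing notes name StringTie 1.3.0 and HISAT2 2.0.4. The sources used here give no settings, genome build or depth. The deposited table, named for edgeR calls and KEGG enrichment, gives for 327 pathways the changed genes, the authors' enrichment ratio (rich factor) and the authors' p-value and q-value. How edgeR was run on 1 library per group, and at which threshold, is not given. The gene numbers equalled the lists in 327 pathways.

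The members and 28 gene lists were chosen with earlier results of these data known. All 65 members are named, and of the genes left out some of those in the list of core genes, the listed caspases or beside a list; some genes that this rule takes are left out of the text. List symbols were matched through gene IDs; GORAB and PTPN13 were in no list. Positions, transcripts and shared 31-base words come from GENCODE release 29, promoters from RefSeq matched by symbol. The plan foresaw protein sequences, which were not used here. Motif searches were tested on simulated sequences. Intervals are exact Clopper-Pearson (95%). Alternatives changed the genes left out, the pathways joined, paralogs and the transcript used. Software was Matplotlib 3.10.9, pandas 2.3.3, SciPy 1.17.1, NumPy 2.4.6 and Python 3.11.15.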

Additional observations from a re-analysis of the deposited data

How the results depend on the processing

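The number of members depends on the rule. With no gene left out there were 144, and with only the 10 named genes left out 134, by construction; with only the 12 pathways left out there were 65. The share of members listed as up was 46.2%. Over 9 alternatives it ran from 40.3% with no gene left out to 50%. The 50% was reached without the p53 signaling pathway, or without histone, tubulin and calmodulin kinase genes. Without the 9 members that share sequence with other genes it was 41.1%, an alternative chosen after seeing the data. The alternatives are overlapping sets of the same genes, so this range is a description and no independent check. With no gene left out, Necroptosis had 21 genes up and 30 down (41.2% up), against 14 up and 10 down for its members (58.3%). The more frequent direction in Necroptosis thus changed with the rule. The share up was then 42.2% for Apoptosis, 24.4% for p53 signaling and 52.9% for Ferroptosis. All 4 shares lay inside the members' intervals, which are wide. The median GC content of members listed as up exceeded that of members listed as down by 11.5 percentage points, and by 8.67 with the mean over all transcripts of a gene. No paired analysis was possible because each group has 1 library. No library could be left out for the same reason. Depth is unknown, so it cannot be said which unlisted genes could have been called.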

Other observations

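Outside the 4 pathways, the members were spread over many others. Metabolic pathways held 11 of them (6 up, 5 down), among 392 listed genes of which 119 were up. Apoptosis - multiple species held 7 (3 up, 4 down), among 18 listed genes of which 5 were up. Endocytosis held 5, the 4 ESCRT-III genes listed as up and TFRC listed as down, among 79 listed genes of which 36 were up. Mineral absorption held FTH1, FTL and HMOX1, listed as up, and SLC40A1, listed as down, among 10 listed genes of which 5 were up. Fatty acid degradation held ACSL3 and ACSL4, both down, among 15 listed genes of which 2 were up. Of the members, 17 were under a single pathway of the table, 9 up and 8 down.

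All 5 members on chromosome 4 (CAMK2D, CASP6, H2AFZ, PTPN13 and SLC39A8) were listed as down, where 12.9% of all 116 listed genes were up. On chromosome 1, 5 of 6 members were up, where 32.4% of all 222 listed genes were up; the chromosome 1 genes included the near-identical HIST2H2AA3 and HIST2H2AA4. On chromosome 19, 3 of 4 members were up (BBC3, FTL and PLA2G4C), where 67.2% of 119 listed genes were up. These values are descriptions of the 2 libraries and were not tested.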
